A study of Mus musculus with 6 samples.

Results

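Fatty acids are built in the cytosol, lengthened and desaturated in the endoplasmic reticulum, and burned in mitochondria and peroxisomes. The genes described here encode 59 enzymes, carriers and regulators of these routes in the mouse, chosen by symbol from a fixed list. Of these, 55 had a row among the 20160 rows of the table, and Fads2, Cpt1b, Decr1 and Etfa were not analysed here. They were placed in 5 groups by role: synthesis, elongation and desaturation, activation and carnitine transfer, mitochondrial oxidation, and peroxisomal oxidation.

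The samples were tumours that grew under the skin from S-180 cells, a mouse sarcoma line. The hosts were nude mice of the BALB/c strain, animals with no thymus and so few T cells. The series title speaks of osteosarcoma and names fatty acid metabolism as a target of the spores. The RGLS group of 3 samples came from mice that had been given RGLS, a preparation of Ganoderma lucidum spores without their outer wall (sporoderm) by that title, before the cells were injected. The model group of 3 samples came from mice with the same tumour cells and no RGLS label. The sources used here give no dose, duration, sex or age. Tumour and host are both mouse, so reads of S-180 cells and of host cells cannot be told apart, and in bulk tissue fewer cells of a type and less RNA per cell cannot be told apart either.

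As background, synthesis starts from citrate, which leaves the mitochondrion and is split into acetyl-CoA. Acetyl-CoA carboxylase and fatty acid synthase then make palmitate with NADPH, largely under control of the transcription factor SREBP-1. For oxidation, fatty acids are joined to CoA, passed into mitochondria as carnitine esters and shortened in repeated cycles that feed electrons to the respiratory chain. Peroxisomes shorten fatty acids that are poor substrates for mitochondria, and PPAR-alpha drives many genes of both routes. Proliferating tumours often make their own fatty acids.

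Levels are CPM values scaled by the authors with TMM, that is a read count divided by an effective library size and not by gene length. The effective library sizes were 21394481 to 25668458 for RGLS and 17377445 to 17683298 for model, and the rows of the table held 1.79% to 1.95% of them in RGLS and 2.09% to 2.21% in model. The 55 genes together had 352 to 578 reads per library and 2581 reads in all. With so few reads, 37 of the 55 genes had fewer than 20 reads over the 6 libraries, and 9 had no read in model and 2 none in RGLS. Ratios of reads below are RGLS over model after scaling to library size, with exact 95% intervals that cover counting error only.

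A property of the rows that bears on the enzymes is whether exons of another gene lie on the opposite strand over at least 50 exonic bases. This held for 17 of the 55 genes, which carried 78.0% of the reads of all 55. The other 38 carried 22%. Per kilobase of exon, the median level of the 17 was 0.0886 CPM in RGLS and 0.0639 CPM in model, and that of the 38 was 0.0292 CPM in RGLS and 0.0143 CPM in model. No source used here states the strand setting of the counting. Reads in such a row may come from either gene, and the 2 cannot be told apart. The classes rest on annotated exons alone. Whether all reads in the other 38 rows come from the named gene was not tested either. Over the whole table the classes of rows went opposite ways. All rows with an opposite gene summed to a read ratio of 0.821 (0.819 to 0.823). Their summed RGLS libraries (13810 to 16205 CPM) all lay below the model libraries (17593 to 19087 CPM). All 13451 rows with no opposite gene summed to 1.21 (1.20 to 1.22). The 8618 of them that are protein-coding and had at most 69 reads, the most that such a member had, summed to 1.43 (1.41 to 1.44). Their summed RGLS libraries (911 to 1263 CPM) all lay above the model libraries (688 to 857 CPM). Of these 8618, 65.8% had a higher mean CPM in RGLS. Below, the class of an enzyme with no opposite gene means these 8618 low protein-coding rows, and that of an overlapped enzyme all rows with an opposite gene. The second class was not matched for level, and its direction differed with level. The mean was higher in RGLS for 45.8% of all its rows. Among those with at least 1 CPM in at least 3 libraries the share was 19.8%.

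Of the 5 groups of enzymes, synthesis had the highest ratio of RGLS to model. Summed over its 9 genes, it had 2.49, 2.53 and 1.68 CPM in RGLS tumours, against 0.921, 1.41 and 0.856 CPM in model tumours. The RGLS libraries all lay above the model libraries, and the ratio was 2.12 (1.55 to 2.93) from 158 reads in RGLS and 56 in model. The summed low protein-coding rows with no opposite gene were separated in the same direction. The mean was higher in RGLS for all 9 genes, of which 7 have no opposite gene. Of the low protein-coding rows with no opposite gene 65.8% had a higher mean in RGLS, and of all rows with an opposite gene 45.8%. Elongation and desaturation had 4.97 ± 1.23 CPM in RGLS and 6.21 ± 1.0 in model (SD, n = 3 each), and its libraries overlapped. Peroxisomal oxidation had 4.54 ± 0.812 in RGLS and 6.73 ± 0.855 in model. Its RGLS libraries all lay below its model libraries, as did those of all rows with an opposite gene. Activation and carnitine transfer, at 2.48 ± 0.248 in RGLS and 2.24 ± 0.495 CPM in model, and mitochondrial oxidation, at 6.35 ± 1.14 in RGLS and 5.34 ± 1.46 CPM in model, overlapped between the groups. All 55 genes together had 20.6 ± 1.72 CPM in RGLS and 21.6 ± 2.06 in model, a difference within the spread of the libraries. No test was made on these sums, because the genes were chosen with results of these data known.

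**Figure D1:**
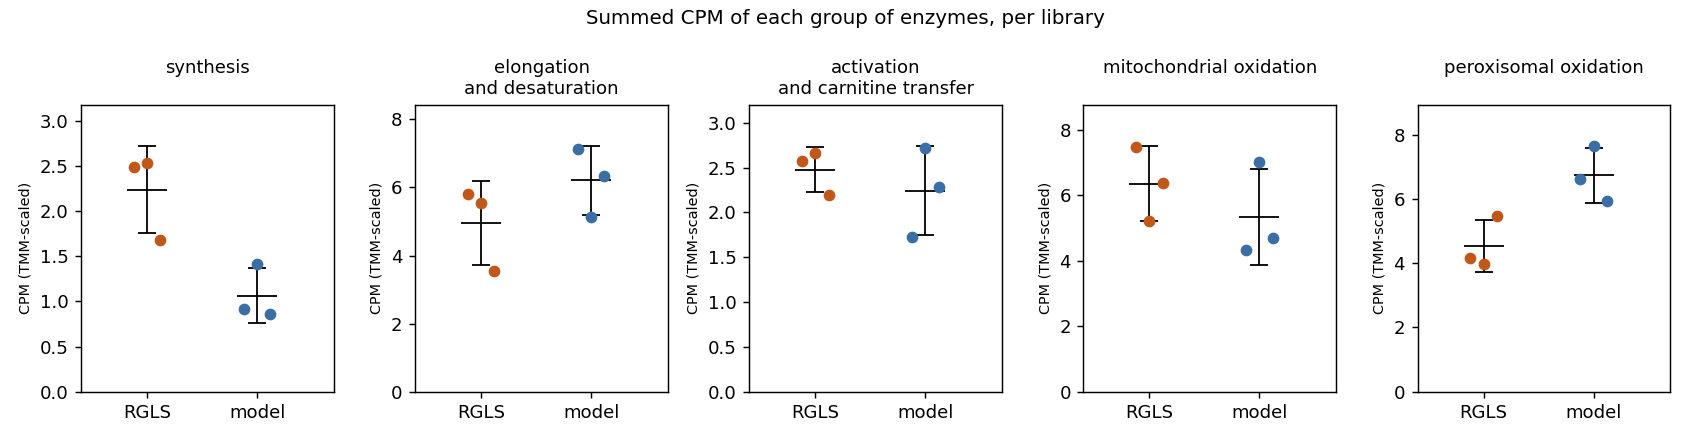
Summed TMM-scaled CPM (vertical axis) of each of the 5 groups of enzymes in 3 RGLS libraries and 3 model libraries. Points are libraries, the short line is the mean and the bars are 1 SD. In synthesis the 3 RGLS points (1.68 to 2.53 CPM) lie above the 3 model points (0.856 to 1.41 CPM), and in peroxisomal oxidation they lie below. Summed over all such rows (not drawn), low protein-coding rows with no opposite gene also lie above, and rows with an opposite gene below.

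Only 6 of the 55 genes had at least 1 CPM in at least 3 libraries, the level needed for the test. They were Elovl1, Hacd4, Acadvl, Etfdh, Acaa1a and Acot8, and all 6 have a gene on the opposite strand. limma, with p-values adjusted by Benjamini-Hochberg over all 2319 such rows, called 0 of the 6, while 1.47% of all rows tested were called, 0.949% higher and 0.517% lower. At an unadjusted p under 0.05 Acaa1a alone of the 6 was lower, beside 17.2% of rows, and neither edgeR nor DESeq2 on the recovered reads called any of them. Acadvl alone had a higher mean in RGLS, beside 19.8% of tested rows with an opposite gene, and none of the 6 had every RGLS library above every model library, beside 4.53% of rows tested. The median log2 fold change was -0.25 over the 6 and -0.17 over all rows tested. In an edgeR test of the 10637 rows with at least 10 reads, which was added after the data were seen, 36 of the genes could be tested. It called 0 of them, against 1.18% of rows called higher and 0.32% called lower, and 1 had an unadjusted p under 0.05, against 14.1% of rows.

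**Figure D2:**
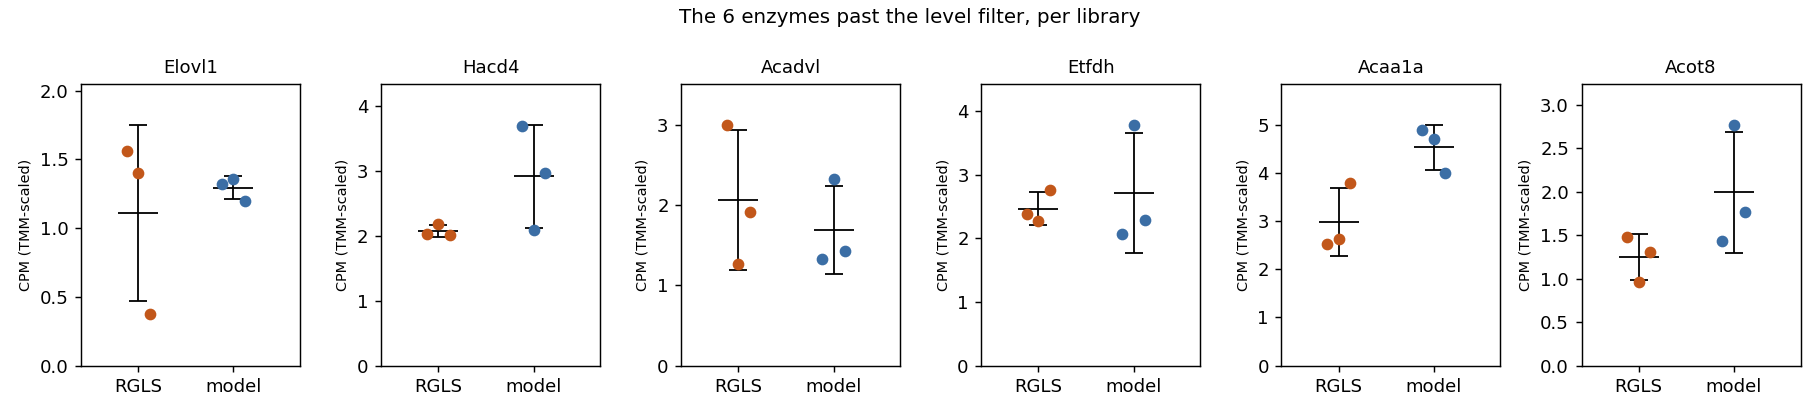
TMM-scaled CPM (vertical axis) of the 6 enzymes that passed the level filter, in 3 RGLS libraries and 3 model libraries. Points are libraries, the short line is the mean and the bars are 1 SD. Only for Acaa1a do the RGLS points (2.53 to 3.79 CPM) all lie below the model points (3.99 to 4.89 CPM).

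The synthesis group runs from the supply of acetyl-CoA to palmitate. Acss2 (chromosome 2, 155517948 to 155585724, GRCm38), the cytosolic enzyme that makes acetyl-CoA from acetate, had 0.467, 0.393 and 0.514 CPM in RGLS, against 0.230, 0.0566 and 0.285 CPM in model. Its RGLS libraries all lay above its model libraries, and the ratio was 2.41 (1.15 to 5.49) from 32 reads in RGLS and 10 in model. Ggt7, Gss and Acss2os lie opposite parts of it. Among all rows with an opposite gene and at least 20 reads, 5.63% had all RGLS libraries above all model libraries, and Acss2 was 1 of 11 such members. The edgeR test of rows with at least 10 reads gave Acss2 a log2 fold change of 1.24 (adjusted p = 0.49, not called).

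Fasn (chromosome 11, 120805846 to 120824547), the synthase that assembles palmitate, had 0.584, 0.306 and 0.234 CPM in RGLS and 0.115, 0.396 and 0.114 CPM in model. The groups overlapped, because model 2 lay above RGLS 2 and RGLS 3, and the ratio was 1.85 (0.886 to 4.12). Acly, which splits cytosolic citrate, had 0.467, 0.524 and 0 CPM in RGLS and 0.345, 0.170 and 0 CPM in model, from 24 reads in RGLS and 9 in model. RGLS 3 and model 3 thus held no read of it. Srebf1 (chromosome 11, 60199089 to 60222581, opposite Rai1), which encodes SREBP-1, had 0.429, 0.743 and 0.327 CPM in RGLS and 0.173, 0.622 and 0.285 CPM in model, a ratio of 1.38 (0.771 to 2.56). It was the member of the group with the most reads and the smallest ratio.

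Slc25a1, the mitochondrial citrate carrier, had 12 reads in RGLS and 1 in model, a ratio of 9.02 (1.33 to 386). Few reads fell on the remaining members too. Me1, the malic enzyme that supplies NADPH, had 10 reads in RGLS and 3 in model. Mecr, of the separate mitochondrial synthesis route, had 7 in RGLS and 1 in model. Of the acetyl-CoA carboxylases, Acaca had 6 reads in RGLS and 2 in model, and Acacb 5 in RGLS and none in model, so neither could be told apart between the groups at this depth.

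The 7 synthesis genes with no opposite gene had a summed read ratio of 2.53 (1.63 to 4.05), from 91 reads in RGLS and 27 in model, beside the 1.43 of their class. Per 1000 CPM of that class they held 1.26, 1.20 and 0.923 CPM in RGLS and 0.630, 0.858 and 0.415 CPM in model. The groups still did not overlap on this measure, though RGLS 3 and model 2 were close. The other 2, Acss2 and Srebf1, had a ratio of 1.74 (1.11 to 2.79), beside 0.821 for all rows with an opposite gene, which were not matched for level. Without Srebf1 the ratio of the group was 2.50 (1.72 to 3.71). Leaving out any single library kept its log2 ratio of mean CPM between 0.94 and 1.33. Fat cells are rich in these enzymes, and the 13 listed adipocyte markers summed to 3.58 to 5.38 CPM in RGLS and 4.43 to 6.96 CPM in model. Of the 13, 5 had a higher mean in RGLS, beside 11510 of all 20160 rows. Most of the sum came from Lipe (opposite 4732471J01Rik), with 255 reads in RGLS and 260 in model. Scaled to library size, its mean was 3.65 CPM in RGLS and 4.94 CPM in model. Without Lipe the other 12 had 74 reads in RGLS and 37 in model, a ratio of 1.5 (1.0 to 2.30), with 0.481 to 1.44 CPM in RGLS and 0.509 to 1.09 CPM in model. Of these 74 and 37 reads, the lipase Pnpla2 held 39 in RGLS and 5 in model, and Pck1, of glyceroneogenesis, 16 in RGLS and 2 in model. By edgeR on rows with at least 10 reads, Pnpla2 and Cfd had log2 fold changes of 2.44 and -2.36 (adjusted p = 0.139 and 0.488, neither called). Of these 12 markers 5 had a higher mean in RGLS and 7 a lower one. The fat cell hormones Adipoq and Lep had 1 read each in either group, and Plin1, the coat protein of lipid droplets, had 2 in RGLS and 1 in model. The part of fat cells in the synthesis values was not tested.

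The promoters of 3 synthesis genes, and of Cpt1a from the carnitine group, are shown because these rows had more reads in RGLS, and their letters can be set beside the known elements of lipid genes. Each is the 250 bases before the RefSeq start, 5′ to 3′ on the strand of the gene. Capitals mark CCAAT, the letters bound by the factor NF-Y that works beside SREBP at lipid genes, on either strand, and in Slc25a1 also 1 E box (CACGTG).
Acss2, chr2:155517793-155518042, plus strand: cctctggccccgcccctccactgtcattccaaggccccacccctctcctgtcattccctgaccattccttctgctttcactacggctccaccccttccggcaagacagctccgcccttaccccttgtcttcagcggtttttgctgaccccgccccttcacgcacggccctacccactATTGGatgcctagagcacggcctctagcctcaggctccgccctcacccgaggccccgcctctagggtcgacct
Fasn, chr11:120824548-120824797, minus strand: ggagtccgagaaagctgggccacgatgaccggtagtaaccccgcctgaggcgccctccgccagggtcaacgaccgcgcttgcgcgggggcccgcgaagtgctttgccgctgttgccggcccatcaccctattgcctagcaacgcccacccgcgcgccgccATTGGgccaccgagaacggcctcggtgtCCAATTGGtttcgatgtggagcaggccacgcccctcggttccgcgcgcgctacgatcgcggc
Slc25a1, chr16:17928220-17928469, minus strand: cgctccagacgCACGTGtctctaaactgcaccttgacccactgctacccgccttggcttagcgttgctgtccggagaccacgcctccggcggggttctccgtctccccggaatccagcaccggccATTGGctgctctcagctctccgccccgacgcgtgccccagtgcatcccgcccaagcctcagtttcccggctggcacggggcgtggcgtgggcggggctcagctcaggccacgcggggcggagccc
Cpt1a, chr19:3323051-3323300, plus strand: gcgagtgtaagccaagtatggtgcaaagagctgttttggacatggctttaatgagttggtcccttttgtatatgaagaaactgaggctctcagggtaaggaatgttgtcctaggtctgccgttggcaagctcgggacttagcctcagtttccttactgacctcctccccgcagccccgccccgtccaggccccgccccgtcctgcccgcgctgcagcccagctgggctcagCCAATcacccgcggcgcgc

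In these windows CCAAT or its reverse ATTGG occurred 3 times in Fasn, where the pair nearest the start overlap in CCAATTGG, and once each in Acss2, Slc25a1 and Cpt1a. Of the 50 genes with a sequence (RefSeq, GRCm38.p6), 27 had it, and of the 9 synthesis genes 7 did, beside 33.8% of all promoters of the same length and 37.5% of all genes. The sterol regulatory element, searched as TCACNCCAC on both strands, was in 0 of the 9 and in 1 of the 50, Acsl1. It was in 1.05% of all promoters and 1.22% of all genes. The E box CACGTG was in 3 of the 50 (Slc25a1, Elovl5 and Hacd3), beside 6.02% of promoters and 6.86% of genes. A PPAR element, searched as its consensus direct repeat, was in 0 of the 50 on either strand, beside 0.0335% of promoters and 0.0407% of genes. A match is a match of letters and not a measured binding site.

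The elongation and desaturation enzymes were, in sum, level between the groups or lower in RGLS. Scd1 (chromosome 19, 44394455 to 44407879), the desaturase that makes oleate and a known SREBP-1 target, had 0.273, 0.524 and 0.140 CPM in RGLS and 0.460, 0.283 and 0.399 CPM in model, a ratio of 0.827 (0.431 to 1.6). The libraries of both groups were interleaved. Its paralogue Scd2 had 12 reads in RGLS and 4 in model. Fads1, a desaturase of polyunsaturated fatty acids, had no read in RGLS and 4 in model, all in model 1. Fads3, whose product resembles Fads1 in sequence, had 7 reads in each group, a ratio of 0.752 (0.225 to 2.51) after scaling.

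Among the elongases, which add carbons to long chains, Elovl1 (chromosome 4, 118428093 to 118432953, overlapped over 53 bases by Cdc20) had 1.56, 1.40 and 0.374 CPM in RGLS and 1.32, 1.36 and 1.20 CPM in model. RGLS 3 alone lay apart, with 8 reads. Its log2 fold change was -0.17 with a standard error (SE) of 0.23 (adjusted p = 0.695 by limma), and 0.11 without RGLS 3. Elovl5, which lengthens polyunsaturated chains, had 19 reads in RGLS and 7 in model, and Elovl6, which makes stearate from palmitate, 7 in RGLS and 6 in model. Elovl7 had 2 reads in all, both in model 2.

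The dehydratase step was the best covered of the cycle. Hacd4 (chromosome 4, 88396144 to 88438928, overlapped over 746 bases by Focad) had 2.03, 2.18 and 2.01 CPM in RGLS and 3.68, 2.09 and 2.97 CPM in model. The RGLS libraries lay close together at the low end of the model range, and RGLS 2 lay above model 2. The log2 fold change of Hacd4 was -0.33 with an SE of 0.20 (adjusted p = 0.345 by limma). Hacd3 (chromosome 9, 64986983 to 65021693), the most covered member without an opposite gene, had 0.779, 0.0437 and 0.608 CPM in RGLS and 0.575, 0.679 and 0.742 CPM in model. RGLS 2 held 1 read of it, against 10 to 20 in the other 5 libraries. Hacd2 had 3 reads in RGLS and 9 in model, a ratio of 0.251 (0.0436 to 1.0), with every RGLS library below every model library. Hacd1 had 3 reads in RGLS and 1 in model. Hsd17b12 and Tecr, the reductases of the cycle, had ratios of 1.5 each with intervals that include 1, from 12 and 8 reads in RGLS against 6 and 4 in model.

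The 12 genes of this group with no opposite gene had a ratio of 0.909 (0.697 to 1.19), below the 1.43 of their class. Per 1000 CPM of the class they held 1.76, 1.69 and 1.28 CPM in RGLS, and 2.59, 1.98 and 3.15 CPM in model. The 3 RGLS libraries were thus the lowest on this measure. The mean was higher in RGLS for 5 of the 12, against 65.8% of the class. The other 2, Elovl1 and Hacd4, had a ratio of 0.765 (0.633 to 0.926), beside 0.821 for all rows with an opposite gene.

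Activation and carnitine transfer joins fatty acids to CoA and carries them into mitochondria. Acsl5 (chromosome 19, 55251938 to 55297720, overlapped over 404 bases by Zdhhc6), an acyl-CoA synthetase, had 1.13, 0.655 and 0.795 CPM in RGLS and 0.863, 1.30 and 0.913 CPM in model, a ratio of 0.849 (0.579 to 1.25). Its groups overlapped. The other acyl-CoA synthetases Acsl1, Acsl3 and Acsl4 had 4, 6 and 3 reads in RGLS, against 0, 4 and 4 in model.

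Cpt1a (chromosome 19, 3322334 to 3385733), the outer-membrane carnitine palmitoyltransferase that sets the rate of entry, had 0.312, 0.349 and 0.187 CPM in RGLS and 0.0575, 0 and 0.171 CPM in model. All RGLS libraries lay above all model libraries, RGLS 3 and model 3 by a narrow margin, and the ratio was 3.76 (1.26 to 15.1) from 20 reads in RGLS and 4 in model. The edgeR test of rows with at least 10 reads gave Cpt1a a log2 fold change of 1.82 (adjusted p = 0.454, not called). Among rows with no opposite gene and at least 20 reads, 15.8% had all RGLS libraries above all model libraries, and Cpt1a was 1 of 7 such members. None of the 7 had all RGLS libraries below, beside 5.26% of those rows. Cpt2, which acts after it on the inner membrane, pointed the other way with 5 reads in RGLS and 10 in model, a ratio of 0.376 (0.101 to 1.21), and its RGLS libraries all lay below its model libraries. Slc25a20, the carrier between them, had 1 read in each group.

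Crat (chromosome 2, 30400471 to 30415813, opposite Gm16323 and Dolpp1), which moves short acyl groups between CoA and carnitine, had 0.857, 1.14 and 0.841 CPM in RGLS and 0.345, 0.848 and 0.856 CPM in model. Only model 1 lay clearly apart, and the ratio was 1.38 (0.905 to 2.13). Cpt1c, the brain-type isoform, had 8 reads in RGLS and 5 in model. The group as a whole had a ratio of 1.11 (0.872 to 1.41). Its 5 genes with no opposite gene had 1.14 (0.657 to 2.03), beside 1.43 for their class. Its 4 overlapped genes had 1.10 (0.841 to 1.44), beside 0.821 for their class, which was not matched for level. Its direction was not stable: the log2 ratio of mean CPM was 0.14, and -0.01 at its lowest when a library was left out, and -0.35 when libraries were scaled to the low protein-coding rows with no opposite gene.

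Mitochondrial oxidation held the most covered acyl-CoA dehydrogenase of the set. Acadvl (chromosome 11, 70010183 to 70015411), which starts the cycle on very long chains, had 3.0, 1.27 and 1.92 CPM in RGLS and 1.32, 2.32 and 1.43 CPM in model. RGLS 1 was the highest and RGLS 2 the lowest of all 6. In limma its log2 fold change was 0.17 with an SE of 0.23 (adjusted p = 0.704), and Dvl2 overlaps 42.9% of its exonic bases. The other acyl-CoA dehydrogenases were low. Acadl, Acadm, Acads and Acadsb had 5, 8, 11 and 4 reads in RGLS, against 6, 4, 4 and 0 in model.

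Etfdh (chromosome 3, 79603788 to 79629500), which passes electrons from these dehydrogenases to ubiquinone, had 2.38, 2.27 and 2.76 CPM in RGLS and 2.07, 3.79 and 2.28 CPM in model. Model 2 was high and the other 5 libraries lay between 2.07 and 2.76 CPM. By limma the log2 fold change was -0.07 with an SE of 0.21 (adjusted p = 0.868), with a sign that changed in 7 of 21 alternatives. Etfb, a subunit of the flavoprotein that hands it electrons, had 9 reads in RGLS and none in model, so the exact 95% interval of its ratio starts at 1.48 and has no upper limit. The reads of Etfb came from RGLS 2 and RGLS 3, and with none in RGLS 1 the groups overlapped.

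The start of Etfdh shows how a row can share its bases with a gene on the other strand. The stretch below is printed on the minus strand, as in the GENCODE transcript of Etfdh that retains an intron, and the 180 capitals are at the same time coding bases of 4930579G24Rik on the plus strand. The row of 4930579G24Rik itself had a mean of 0.0312 CPM in RGLS and 0.0192 CPM in model.
Etfdh, chr3:79629177-79629396, minus strand: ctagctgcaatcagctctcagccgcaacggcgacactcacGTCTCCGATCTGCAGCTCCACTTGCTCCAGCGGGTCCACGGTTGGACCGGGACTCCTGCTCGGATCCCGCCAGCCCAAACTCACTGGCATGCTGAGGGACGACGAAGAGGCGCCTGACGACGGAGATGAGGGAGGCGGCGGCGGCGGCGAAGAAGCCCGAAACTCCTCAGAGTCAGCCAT

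Acat1 (chromosome 9, 53580522 to 53610382), the thiolase that splits acetoacetyl-CoA, had 0.467, 0.306 and 0.748 CPM in RGLS and 0.288, 0.452 and 0.457 CPM in model, a ratio of 1.25 (0.709 to 2.26). The groups overlapped. Hadha and Hadhb, the alpha and beta subunits of the trifunctional protein for long chains, had 8 and 10 reads in RGLS, against 6 and 2 in model. Hadh, the dehydrogenase for shorter chains, had 8 reads in RGLS and 1 in model, with every RGLS library above every model library. Hsd17b10 and Acaa2, of the last steps, had 10 and 9 reads in RGLS, against 1 each in model, but 9 of the reads of each came from RGLS 1 alone. Ech1 likewise had 5 reads, all in RGLS 1. Echs1 and Eci1 had 4 and 2 reads in RGLS, against 3 and 0 in model.

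The 12 mitochondrial genes with no opposite gene had 1.99, 1.40 and 1.54 CPM in RGLS and 0.633, 0.679 and 0.970 CPM in model. The groups did not overlap, and the mean was higher in RGLS for 11 of the 12, beside 65.8% of the class. The ratio was 2.18 (1.51 to 3.21), beside 1.43 for the class. Per 1000 CPM of the class they held 1.57, 1.20 and 1.69 CPM in RGLS and 0.771, 0.792 and 1.41 CPM in model, where RGLS 2 fell below model 3 and the groups overlapped. The 4 genes with an opposite gene had a ratio of 1.03 (0.872 to 1.22), beside 0.821 for their class, which was not matched for level. Skeletal muscle is rich in these enzymes. Of its 18 listed markers 15 had a row, 12 of these with a higher mean in RGLS, beside 11510 of all 20160 rows. The 15 summed to 10.3 to 11.8 CPM in RGLS and 4.72 to 6.11 CPM in model. Of the 4 that reached the tested level, limma called Acta1 and Des higher. It did not call Ckm (log2 fold change 0.22, adjusted p = 0.530) or Ttn (-0.10, adjusted p = 0.814). The myosin Myh4 had 33 reads in RGLS and none in model. By edgeR on rows with at least 10 reads, Acta1, Des and Myh4 were called higher, beside 1.18% of rows. Myh4 had a log2 fold change of 6.27 (adjusted p = 0.0115). In the same test Tnnc2 and Mb had log2 fold changes of -0.95 and -0.78 (adjusted p = 0.419 and 0.842, not called). The part of muscle in the mitochondrial values was not tested.

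Peroxisomal oxidation rested on a pair of rows. Acaa1a (chromosome 9, 119339676 to 119350299), the peroxisomal thiolase, had 2.53, 2.62 and 3.79 CPM in RGLS and 4.89, 4.69 and 3.99 CPM in model. All RGLS libraries lay below all model libraries, with RGLS 3 closest to the model range. The limma log2 fold change of Acaa1a was -0.48 with an SE of 0.19 (adjusted p = 0.143, not called), or -0.32 once the median of the rows is subtracted. It had the lowest p of the 6 tested genes, but 22.1% of all rows tested also had every RGLS library below every model library, as did 15.5% of rows with an opposite gene and at least 20 reads. Over 21 alternatives its adjusted p lay between 0.0577 and 0.819. Myd88, the adaptor of Toll-like receptors, overlaps Acaa1a over 290 bases.

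Acot8 (chromosome 2, 164792765 to 164804882, overlapped over 246 bases by Snx21), a peroxisomal acyl-CoA thioesterase, had 1.48, 0.961 and 1.31 CPM in RGLS and 1.44, 2.77 and 1.77 CPM in model. RGLS 1 and model 1 were nearly level and model 2 was high, so the groups overlapped, and limma gave -0.39 on the log2 scale with an SE of 0.21 (adjusted p = 0.280). Acox3, an oxidase for branched chains, had 0.0390, 0.218 and 0.327 CPM in RGLS and 0.230, 0.170 and 0.171 CPM in model, a ratio of 0.977 (0.396 to 2.49). Crot, Eci2, Hsd17b4 and Ppara, which encodes PPAR-alpha itself, had 4, 1, 2 and 1 reads in RGLS, against 1 read of Crot and none of the others in model. No difference in these was detectable at this depth.

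The 5 peroxisomal genes with an opposite gene had a ratio of 0.663 (0.567 to 0.774), beside 0.821 for all rows of that class. Per 1000 CPM of the class they held 0.302, 0.255 and 0.335 CPM in RGLS and 0.363, 0.434 and 0.311 CPM in model. On this measure RGLS 3 lay above model 3 and the groups overlapped.

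**Figure D3:**
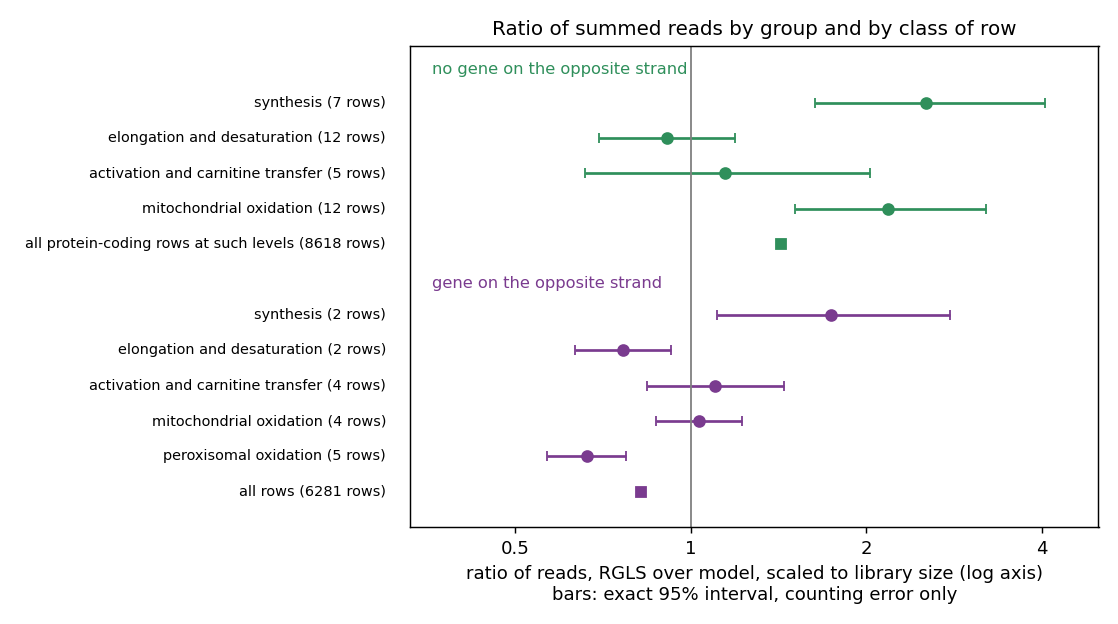
Ratio of summed reads, RGLS over model, after scaling to library size (horizontal log axis), for each group of enzymes split by whether a gene lies on the opposite strand. Circles are groups of enzymes, squares are the class (the 8618 low protein-coding rows with no opposite gene, and all rows with one), and bars are exact 95% intervals for counting error only. Among rows with no opposite gene, synthesis (2.53) and mitochondrial oxidation (2.18) lie above the class (1.43) and elongation and desaturation (0.909) lies below it. The 2 peroxisomal rows with no opposite gene, with no read in model, are not drawn.

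Taken over all 38 genes with no opposite gene, the enzymes had 6.39, 5.42 and 3.93 CPM in RGLS and 3.57, 3.68 and 3.88 CPM in model. RGLS 3 lay next to the model libraries. Their ratio of 1.43 (1.20 to 1.71) was the same as the 1.43 of the protein-coding rows at such levels, and all rows with no opposite gene had 1.21. The mean was higher in RGLS for 27 of the 38, beside 65.8% of those rows. In 3 of the 38 (Slc25a1, Cpt1a and Hadh) every RGLS library lay above every model library, beside 8.33% of those rows, and in 2 (Hacd2 and Cpt2) every one lay below, beside 1.95%. The 17 genes with an opposite gene had a ratio of 0.859 (0.786 to 0.938), beside 0.821, and 10 of them had a higher mean in RGLS, beside 45.8% of all rows with an opposite gene. As a whole the enzymes thus had ratios close to those of their classes, while single groups of enzymes lay on either side of them. The difference of a group from its class was not tested.

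**Figure D4:**
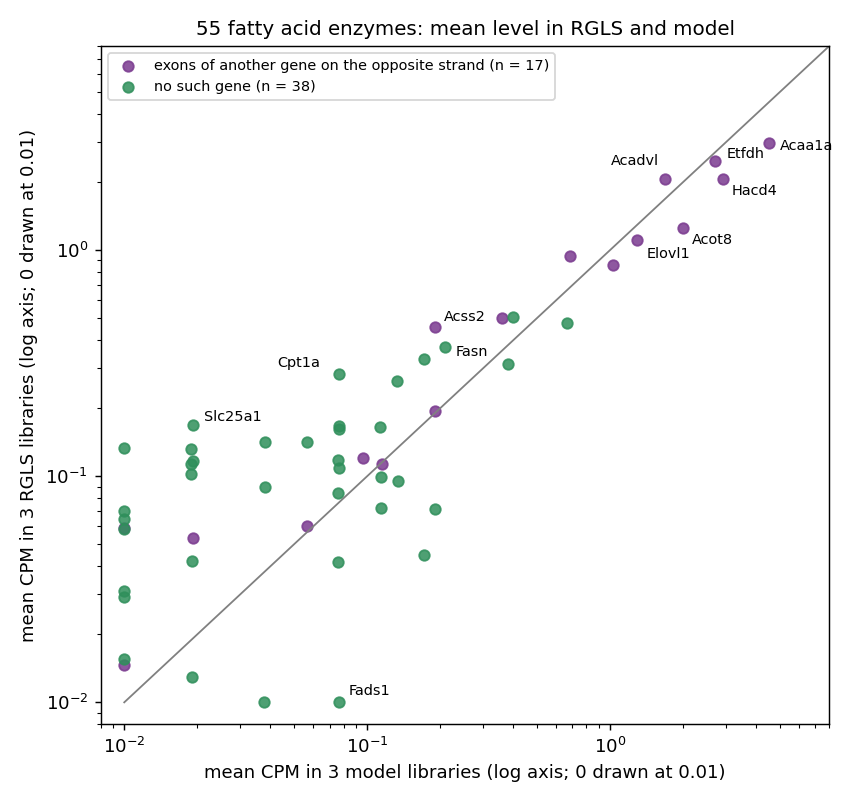
Mean TMM-scaled CPM of the 55 genes in 3 model libraries (horizontal log axis) and 3 RGLS libraries (vertical log axis), with means of 0 drawn at 0.01 and a line of equal level. Each point is a gene, coloured by whether exons of another gene lie on the opposite strand (17 genes) or not (38 genes). The 6 tested genes at the upper right all have an opposite gene, and 27 of the 38 others lie above the line.

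In turn, 20 rows of the table lay opposite 17 of the enzymes, and 3 of them reached the tested level. Dvl2, a Wnt signalling protein whose exons run through those of Acadvl, had 1.44, 1.62 and 1.82 CPM in RGLS and 1.78, 1.47 and 1.20 CPM in model (log2 fold change 0.08, SE 0.20, limma adjusted p = 0.835). Snx21, a sorting nexin opposite Acot8, had 3.19, 2.14 and 2.99 CPM in RGLS and 2.24, 3.90 and 3.54 CPM in model (limma adjusted p = 0.696). Gm16323, an antisense gene opposite Crat, had 1.32, 1.53 and 2.15 CPM in RGLS and 1.90, 1.58 and 2.74 CPM in model (limma adjusted p = 0.601). Each of the 3 overlapped between the groups. Myd88, opposite Acaa1a, had a mean of 0.398 CPM in RGLS and 0.342 CPM in model.

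Other genes of the same routes gave no calls. Of 33 further genes of synthesis and elongation 30 had a row and 2 were tested, and of 53 further genes of oxidation 42 had a row and 1 was tested. limma called 0 of these 3, beside 1.47% of all rows tested. edgeR on rows with at least 10 reads called 0 of 12 and 0 of 15, beside 1.18% of rows called higher and 0.32% called lower. Mlx, a partner of the lipogenic factor ChREBP (opposite Psmc3ip), had 1.21 ± 0.307 CPM in RGLS and 1.75 ± 0.710 in model (SD, n = 3 each). Cyb5r3, the reductase that supplies electrons to desaturases (opposite Gm49463), had 1.12 ± 0.599 CPM in RGLS and 1.24 ± 0.231 in model. Acsf3, a mitochondrial malonyl-CoA synthetase with no opposite gene, had 13.1 ± 1.36 CPM in RGLS and 12.8 ± 2.47 in model, far above every other row of either list (limma log2 fold change 0.05, SE 0.16, adjusted p = 0.890).

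Markers were also thin. The mesenchymal list, which fits a sarcoma, had 10 of 12 genes in the table and summed to 2.94 to 5.65 CPM in RGLS and 1.65 to 2.26 CPM in model. Of the 10, 9 had a higher mean in RGLS, beside 11510 of all 20160 rows. Vim, the mesenchymal filament protein, had 114 reads in RGLS and 43 in model. It was not called by limma (log2 fold change 0.51, adjusted p = 0.154). Macrophage markers, 11 of 12 in the table, summed to 12.5 to 13.8 CPM in RGLS and 15.0 to 17.0 CPM in model, most of it in Csf1r (opposite Hmgxb3). Yet 9 of the 11 had a higher mean in RGLS, beside 11510 of all 20160 rows. Without Csf1r the other 10 summed to 1.88 to 3.74 CPM in RGLS and 1.20 to 2.49 CPM in model, a ratio of 1.65 (1.28 to 2.13). Of these Lyz2, the macrophage lysozyme, had 74 reads in RGLS and 19 in model (edgeR adjusted p = 0.208, not called). Endothelial markers summed to 0.218 to 0.654 CPM in RGLS and 0.0571 to 0.691 CPM in model. Their part in the values of the enzymes was not tested.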

How the data were processed

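The authors deposited 1 table of TMM-scaled CPM values with 20160 rows and 6 columns, matched to samples by title, and 0 columns of other samples were present. Bowtie2, HTSeq and the mm10 build are named, without versions, in the submitters' processing notes. Per the labels' protocols, total RNA was isolated with an EASYspin kit and a SMARTER kit gave the mRNA libraries. All values were whole multiples of the smallest value of their column (100% within 0.001 of a read), so reads per row and the effective size of each library were recovered. The rows held 369453 to 458641 reads per library.

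Genes were placed with GENCODE vM21 (GRCm38, the assembly of mm10). RGLS was compared with model on log2(CPM + 1) by the 2-sided test of limma 3.58.1 (in R 4.3.3, with a trend on intensity). Rows needed 1 CPM or more in 3 libraries or more, and p-values were adjusted by Benjamini-Hochberg, with a threshold of 0.05. Such fold changes understate those of low rows. Recovered reads tested with DESeq2 1.42.0 and edgeR 4.0.16, other pseudocounts, filters and scalings, a replicate block and leaving out each library were alternatives. Genes under the filter have ratios of reads with exact 95% intervals and no p.

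The members and lists were chosen with earlier results of these data known. Named were the genes past the filter, the 3 with most reads in each group, and others with at least 20 reads and no overlap between groups. Other genes are given by reads, as chosen after their values were seen. Whether the 3 samples of each group are from separate mice is not in the labels, so p-values measure only the spread between these samples.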

Additional observations from a re-analysis of the deposited data

How the results depend on the processing

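In none of the 21 alternatives that could test them was any of the enzymes called, higher or lower. Over all rows, limma called 22 higher and 12 lower in RGLS. The higher calls numbered 9 with a pseudocount of 0.1, 208 with no filter, 93 with a filter of 0.25 CPM and 6 with one of 5 CPM, where no enzyme was left to test. They numbered 11 without a trend, 34 with a robust prior, 10 with equal medians, 7 after quantile normalization, 13 with edgeR on new TMM factors, 50 with DESeq2 and 126 with edgeR on rows of at least 10 reads. The lower calls numbered 4 with a pseudocount of 0.1, 67 with no filter, 32 with a filter of 0.25 CPM, 3 without a trend, 41 with a robust prior, 4 with equal medians, 2 after quantile normalization, 7 with equal medians within classes, 4 when scaled to the total of the rows, 3 with edgeR and TMM factors, 4 with DESeq2 and 34 with edgeR on rows of at least 10 reads. Leaving out 1 library gave 1 to 82 higher and 3 to 99 lower. Of all calls 64.7% were higher in the main test, 45.3% with a robust prior and 92.6% with DESeq2. Whether the replicate numbers pair the samples could not be settled from these libraries (correlation of deviations 0.00, -0.01 and 0.38 for replicates 1, 2 and 3). With a replicate block there were 111 higher and 120 lower calls, none of them an enzyme.

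Acaa1a, Acot8 and Hacd4 stayed lower in RGLS in all 21 alternatives. Elovl1 reversed sign with equal medians within classes (0.0049), edgeR and TMM factors (0.041) and DESeq2 (0.043), and ranged from -0.34 to 0.11 when a library was left out. Etfdh reversed with equal medians (0.029), quantile normalization (0.012), class medians (0.10), the total of the rows (0.062), edgeR and TMM factors (0.077) and DESeq2 (0.079), and ranged from -0.20 to 0.12 without 1 library. Acadvl ranged from -0.046 to 0.36 without 1 library. The cause was not tested.

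For the summed CPM, scaling to the low protein-coding rows with no opposite gene, added after the data were seen, moved the log2 ratio of synthesis from 1.07 to 0.58, elongation and desaturation from -0.32 to -0.85, activation and carnitine transfer from 0.14 to -0.35, mitochondrial oxidation from 0.25 to -0.22 and peroxisomal oxidation from -0.57 to -1.01. Scaling within classes moved peroxisomal oxidation to -0.30. Without Acsl5, activation and carnitine transfer had 0.41, and mitochondrial oxidation over genes with no opposite gene had 1.11. Leaving out a library gave 0.94 to 1.33 for synthesis, -0.45 to -0.13 for elongation and desaturation, -0.01 to 0.31 for activation and carnitine transfer, 0.11 to 0.50 for mitochondrial oxidation and -0.72 to -0.47 for peroxisomal oxidation. With a minimum of 200 shared bases 11 enzymes had an opposite gene, against 17. Depth limits all of these values: 1 read was worth 0.0390 to 0.0467 CPM in RGLS and 0.0566 to 0.0575 CPM in model.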

Other observations

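NADPH for fatty acid synthesis comes from malic enzyme and from the pentose phosphate pathway. The rows of that pathway were chosen after their values were seen. Pgd, 6-phosphogluconate dehydrogenase, had 32 reads in RGLS and 5 in model, and G6pdx, glucose-6-phosphate dehydrogenase (opposite Ikbkg), had 26 in RGLS and 4 in model. Neither was called by edgeR on rows with at least 10 reads (adjusted p = 0.229 and 0.27), and Me1 had 10 reads in RGLS and 3 in model. Pgd and G6pdx are of the further synthesis and elongation list. Of its 30 rows 17 had a higher mean in RGLS and 13 a lower one. Acsf3 had more reads (911 in RGLS and 670 in model) than any of the 55 enzymes described above, although no gene lies opposite it.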
